A study of Mus musculus with 18 samples.

Results

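AB2.2 is a mouse embryonic stem (ES) cell line, and the comparison described here is that of its cells at day 6 with its cells at day 4 after leukemia inhibitory factor (LIF) was withdrawn. It takes 4 of the 18 arrays of the series, the 2 labelled AB2.2 4d and the 2 labelled AB2.2 6d, chosen by those labels and not by any measured value. The other arrays are of AB2.2 at days 0, 2 and 8 and of a second mouse ES line, PL2F8, at days 0, 2, 4, 6 and 8. Both lines lost LIF at day 0, no other agent or genetic change is given, and total RNA was measured on Illumina bead arrays. Whether both arrays of a day stem from independent cultures is not stated in the labels, and p-values therefore reflect array-to-array spread that could be purely technical.

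LIF is the cytokine that, through its receptor and the transcription factor STAT3, helps hold mouse ES cells in the naive state, which resembles the epiblast of the blastocyst. Without it the cells pass through a state like the early postimplantation epiblast and then form derivatives of endoderm, mesoderm and ectoderm. The outer layer that ES cell cultures often form resembles visceral endoderm, the secretory epithelium that surrounds the epiblast and makes many of the plasma proteins that the liver makes later. In AB2.2 the epiblast gene Fgf5 had its highest level at day 4, where the interval described here begins, as the plot of levels by day shows. The epiblast genes Pou3f1 and Dnmt3b had theirs at day 2.

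From day 4 to day 6 the visceral endoderm proteins, gut epithelial genes, basement membrane genes, BMP4 and its target genes and several imprinted growth regulators rose, and the genes of the primed epiblast, the Nodal cofactor and antagonists and cholesterol synthesis fell. Levels are log2 normalized signals, that is, the background-corrected probe signal plus 16 on the log2 scale after quantile normalization, and a change is the day 6 mean minus the day 4 mean ± its standard error from limma (2 arrays against 2, with the spread of a gene pooled over 15 arrays). A gene was called when its Benjamini-Hochberg adjusted p was below 0.05. A gene undetected on both arrays of a day was tested only if both arrays of the other day detected it. Such a gene could hardly be called except as higher on that other day. Of 13645 genes tested, 2148 were higher at day 6 (15.7%) and 2284 lower (16.7%), so that 32.5% were called, and the median change of all genes was -0.03. By at least 2-fold, 282 were higher (2.07%) and 97 lower (0.711%). All 4432 called genes had day 4 and day 6 arrays that did not overlap, as did 67.3% of all genes tested. With median scaling in place of quantile normalization the median of all genes moved to 0.12 and the share of higher calls from 48.5% to 80.4% (3245 higher and 791 lower). Small changes therefore have no settled direction. For some lists, not all, the median or the counts under median scaling are given below. The counts of every list are to be read against the 15.7% of all genes called higher and the 16.7% called lower. Counts of calls also fell when an array was left out, to between 1383 and 1675 higher and between 1443 and 1498 lower.

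**Figure D1:**
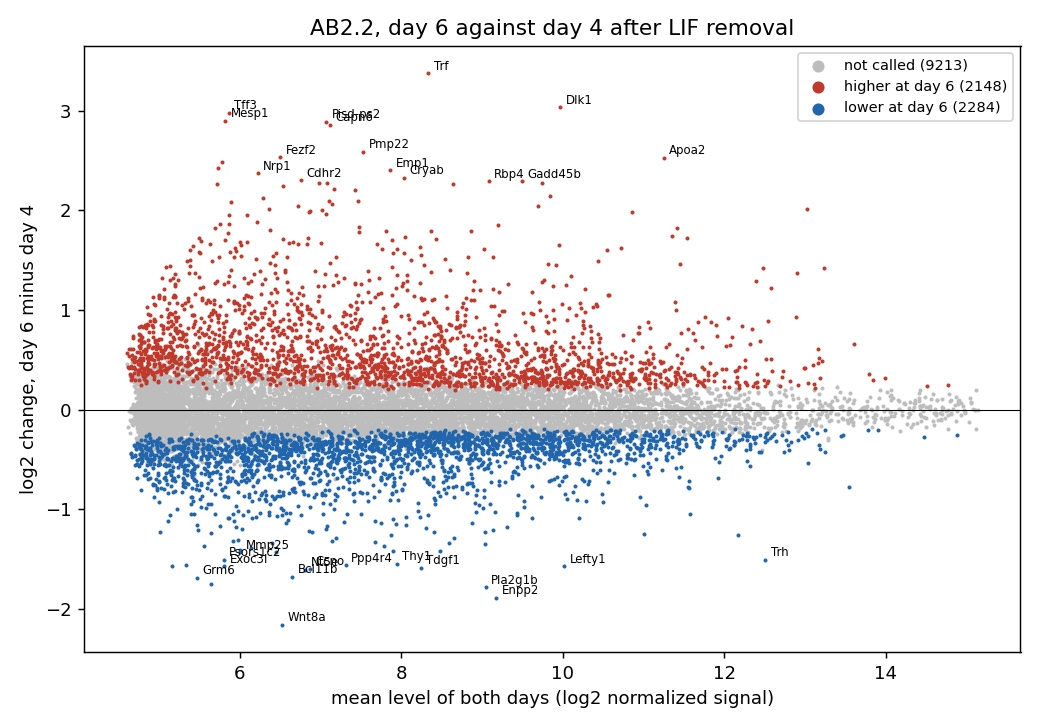
Each point is 1 of the 13645 genes, placed by the mean of its day 4 and day 6 levels (x axis, log2 normalized signal) and its fitted log2 change from day 4 to day 6 in AB2.2 (y axis), red for the 2148 called higher, blue for the 2284 called lower and grey for the rest; the 15 highest and 15 lowest called genes are labelled, ranked by their bound where the lower day was undetected, so that an unlabelled gene such as Isl1 can lie above a labelled one. The highest rises extend to 3.37 (Trf) and the lowest value is -2.16 (Wnt8a).

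The mean probe signal was 384.1 and 391.2 on the day 4 arrays and 492.7 and 395.9 on the day 6 arrays, with 42.4% to 45.0% of probes detected. Replicate arrays correlated across genes at 0.9969 on day 4 and 0.9974 on day 6, a description of the arrays since genes are not independent replicates. All 10 ES cell markers were detected on all 4 arrays, which by itself does not establish the identity of the cells. Their summed signal was 38596 to 38819 on day 4 and 30082 to 31805 on day 6, and 4 of them were called lower and 1 higher. Of markers of cells that a culture could hold besides, the fibroblast collagens Col1a2 and Col3a1 and the genes Lum and Postn were undetected on all 4 arrays, as were the blood genes Gata1, Tal1, Ptprc and Lyz2, the endothelial genes Kdr, Tie1 and Emcn and the trophoblast genes Elf5 and Gcm1. Other members were detected. Among 15 fibroblast markers 8 were detected on both day 4 arrays and 10 on both day 6 arrays, including Fbln1, Mmp2 and Fn1. For the 9 trophoblast markers these counts were 6 and 7, and for the 7 endothelial markers 3 and 3. The blood gene Runx1 was undetected on day 4, detected on both day 6 arrays and not called (0.32, limma adjusted p = 0.0716). Of 8 blood markers 5 had a probe, and the globin genes Hbb-bh1, Hba-x and Hba-a1 had none. The blood markers summed to 113 on day 4 and 114 to 124 on day 6. The summed signal of 15 fibroblast markers was 4319 to 4387 on day 4 and 5373 to 5392 on day 6, with 5 called higher and 2 lower. The 9 trophoblast markers summed to 1141 to 1323 on day 4 and 1888 to 1947 on day 6, with 5 called higher and none lower, and the 7 endothelial markers to 581 to 591 and 867 to 878, with 1 (Flt1) called higher. Of the cardiomyocyte markers 5 had a probe, and they summed to 537 to 548 on day 4 and 971 to 1013 on day 6, with 2 called higher and 1 lower. The 7 neuronal markers summed to 809 to 841 and 750 to 759, with 2 called higher and 2 lower. The part of such cells in the results below was not tested. In bulk RNA a change in the number of cells of a type and a change in RNA per cell cannot be told apart.

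The largest rise was that of Trf, which encodes transferrin, the iron carrier of plasma. Its level was 6.75 and 6.55 on the day 4 arrays and 9.97 and 10.08 on the day 6 arrays, a rise of 3.37 ± 0.14 (10.4-fold, limma adjusted p = 4.73e-08). The day 4 arrays lay below both day 0 arrays (7.11 and 7.25), so transferrin RNA was past its starting level only at day 6. Afp, which encodes alpha-fetoprotein, the main plasma protein of the fetus, went from 8.84 and 8.71 to 10.92 on both arrays (2.14 ± 0.08, 4.42-fold, adjusted p = 3.06e-08). Apolipoprotein Apoa2 went from 9.96 and 10.01 to 12.50 and 12.53 (2.53 ± 0.23), where a second, dimmer probe gave 1.31. The retinol carrier Rbp4 rose from 7.78 and 8.09 to 10.21 and 10.25 (2.29 ± 0.17, adjusted p = 2.55e-06). By their brightest probes these secreted carriers were 4.42-fold to 10.4-fold higher at day 6, with no overlap of the arrays, as for 67.3% of all genes tested.

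Of 34 tested genes for proteins of the visceral endoderm, 33 rose and none fell (against 15.7% and 16.7% of all genes), with a median change of 1.29, or 1.08 with genes undetected at day 4 set at their bounds. The fibrinogen chains Fga and Fgg, which form the clotting protein, rose by 2.27 and 1.66. Lipoprotein genes rose over a wide range, from Apoc1 (0.57) and Apoe (0.81) over Apoa4 (1.10), Apob (1.28), Apoa1 (1.29) and Apoc2 (1.69) to Apom (1.82). The lipid transfer protein Mttp, which loads apolipoprotein B, rose by 0.84. Ttr, the thyroid hormone carrier transthyretin, was already high on day 4 (12.08 and 12.35) and rose to 13.60 and 13.57 (1.37 ± 0.10). Of the endocytic receptors of this epithelium, amnionless (Amn) rose by 0.77, cubilin (Cubn) by 0.29, megalin (Lrp2) by 0.25 and their adaptor Dab2 by 0.36. The single tested member not called was Tdh, threonine dehydrogenase (-0.03), which ES cells themselves express.

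Among 13 tested transcription factors of the endoderm, 10 rose and none fell, with a median of 0.62. Foxa3, a forkhead factor of liver and gut, rose from 8.08 and 8.16 to 9.55 and 9.45 (1.38 ± 0.08, 2.59-fold), and Foxa1 rose by 0.77. Sox17, which specifies definitive and extraembryonic endoderm, rose by 0.91 (7.97 and 7.90 to 8.92 and 8.77). Gata6, which drives primitive endoderm, rose by 0.60 from a level already detected at day 0. Hnf4a, a nuclear receptor of the visceral endoderm secretory program, rose by 0.74. Foxa2 (0.09 ± 0.17, adjusted p = 0.729) and Gata4 (0.38 ± 0.17, adjusted p = 0.111) were not called. Gata4 passed the threshold with median scaling (0.55, adjusted p = 0.00712). Sox9, an HMG box factor of endoderm and cartilage, rose by 1.72 ± 0.16 from 5.83 and 6.12. Nr2f2, an orphan nuclear receptor, was undetected on day 4 and was at least 1.96-fold higher on day 6.

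Genes of the parietal endoderm and of basement membranes rose with them, 15 of 17 called higher and none lower (median 0.89). The collagen IV chains Col4a1 and Col4a2, which build the basement membrane network, went from 12.01 and 11.94 to 13.13 and 13.26 (1.22 ± 0.07) and from 10.81 and 10.62 to 12.14 and 12.22 (1.46 ± 0.09). Nidogen Nid1 rose by 1.17, and the laminin chains Lama1 and Lamc1 by 0.66 and 0.50. The simple epithelial keratins Krt8, Krt18 and Krt19 rose by 1.42, 0.85 and 1.53. They are also in the list of epithelial junction genes, which as a whole had 8 of 26 higher and 5 lower (median 0.11), with 2 to 4 lower when an array was left out and none under median scaling. Thus both collagen IV chains were more than 2-fold higher on each day 6 array. Nid2 (-0.02) and Fst (0.14) were not called.

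Gut and enteroendocrine genes were the list with the highest median, 1.38, with 10 of 13 called higher and none lower. Another 11 genes of the list had a probe but did not pass the filter on detection. Cdx2, the caudal homeobox factor of the intestine, of posterior axial tissue and of trophectoderm, was 5.71 and 5.70 on day 4 and 7.76 and 7.73 on day 6 (2.04 ± 0.13, 4.11-fold, adjusted p = 7.31e-07). Pyy, the gut hormone peptide YY, went from 5.35 and 5.48 to 7.73 and 7.59 (2.25 ± 0.09). The pore-forming claudin Cldn2 went from 6.38 and 6.27 to 8.45 and 8.61 (4.61-fold, SE of the log2 change 0.10, second probe 1.96). Each of these was near background at day 0 and by its brightest probe rose more than 4-fold between days 4 and 6. The trefoil peptide Tff3, secreted by goblet cells, was undetected on both day 4 arrays and at least 5.73-fold higher on day 6 (7.41 and 7.29). Colipase (Clps), the brush border protein villin (Vil1) and gastrokine (Gkn1) rose by 2.12, 1.38 and 1.45. The brush border cadherin Cdhr2, a member of no list, rose by 2.30 ± 0.19 (other probes 2.26 and 1.52). Chga (-0.01), the granule protein of endocrine cells, and Neurog3 (0.11), the factor that specifies them, were not called.

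**Figure D2:**
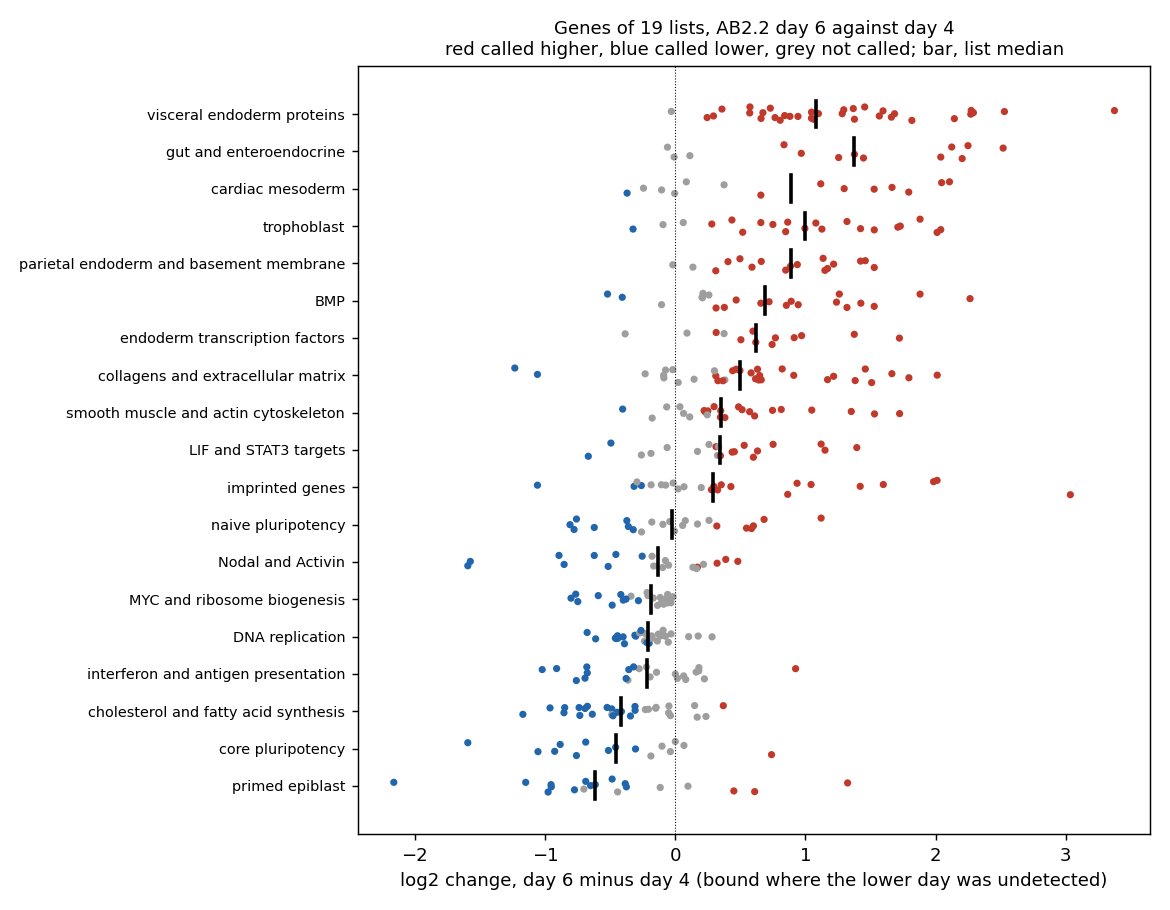
Each point is a tested gene of 1 of 19 lists, at its log2 change from day 4 to day 6 in AB2.2 (x axis; for genes undetected on the lower day, the bound), red called higher, blue called lower and grey not called, and the black bar is the list median. Visceral endoderm proteins and gut genes lie almost wholly to the right of 0, primed epiblast and cholesterol synthesis genes mostly to the left, and naive pluripotency genes on both sides.

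Trophoblast genes also rose, 18 of 21 called higher and 1 lower (median 1.08, or 1.00 at bounds), though several of them (such as Krt8, Krt18, Krt19, Cdx2, Hand1, Gata2, Gata3 and Igf2) belong to other lists as well. Gata3, a zinc finger factor of trophectoderm and of BMP responses, went from 5.19 and 5.35 to 7.06 and 7.25 (1.88 ± 0.11), and its paralog Gata2 from 5.89 and 5.71 to 7.07 and 7.17 (1.32 ± 0.10). Tfap2a and Tfap2c, AP-2 factors of trophectoderm and surface ectoderm, rose by 1.08 and 0.44. The X-linked homeobox genes Rhox6 and Rhox9 rose by 1.71 and 1.73, with the reservation that they are near-identical copies whose probes may share signal. Elf5 and Gcm1, which define trophoblast stem cells and syncytiotrophoblast, were undetected on all 4 arrays. The proliferin gene Prl2c3 was the 1 member that fell (-0.32).

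BMP4, the signal that induces mesoderm, trophoblast and ventral fates and acts through SMAD1 and SMAD5 on the Id genes, was itself among the genes that rose. Bmp4 was 7.61 and 7.42 on day 4 and 9.85 and 9.70 on day 6 (2.26 ± 0.09, 4.80-fold, adjusted p = 3.06e-08), against 10.27 and 10.21 before LIF removal. It thus returned close to its starting level after a trough on days 2 and 4, and a second probe gave 1.35. Of 22 tested BMP genes 15 rose and 2 fell, with a median of 0.79 (0.69 at bounds). Detection on all 4 arrays held for 17 of the 22. Among the ligands, Bmp7 rose by 0.95, Bmp6 was undetected on day 4, and Bmp5 (0.21) was not called. The receptor genes Bmpr1a (0.21) and Acvr1 (0.21) and the transducers Smad1 (0.26) and Smad5 (-0.10) were not called, whereas Bmpr2 rose by 0.31. The target genes rose by more. Id1 went from 9.21 and 9.32 to 10.50 and 10.51 (1.24 ± 0.07), Id2 from 7.10 and 7.23 to 8.64 and 8.54 (1.43 ± 0.09), and Id3, Id4 and Msx1 rose by 0.89, 0.72 and 1.26. So the Id genes, which encode inhibitors of basic helix-loop-helix factors, were higher on every day 6 array. The inhibitory Smad6 rose by 0.38, Chrd, which encodes the BMP-binding chordin, fell by 0.52, and the BMP antagonist Nog, undetected on day 4, was called higher.

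**Figure D3:**
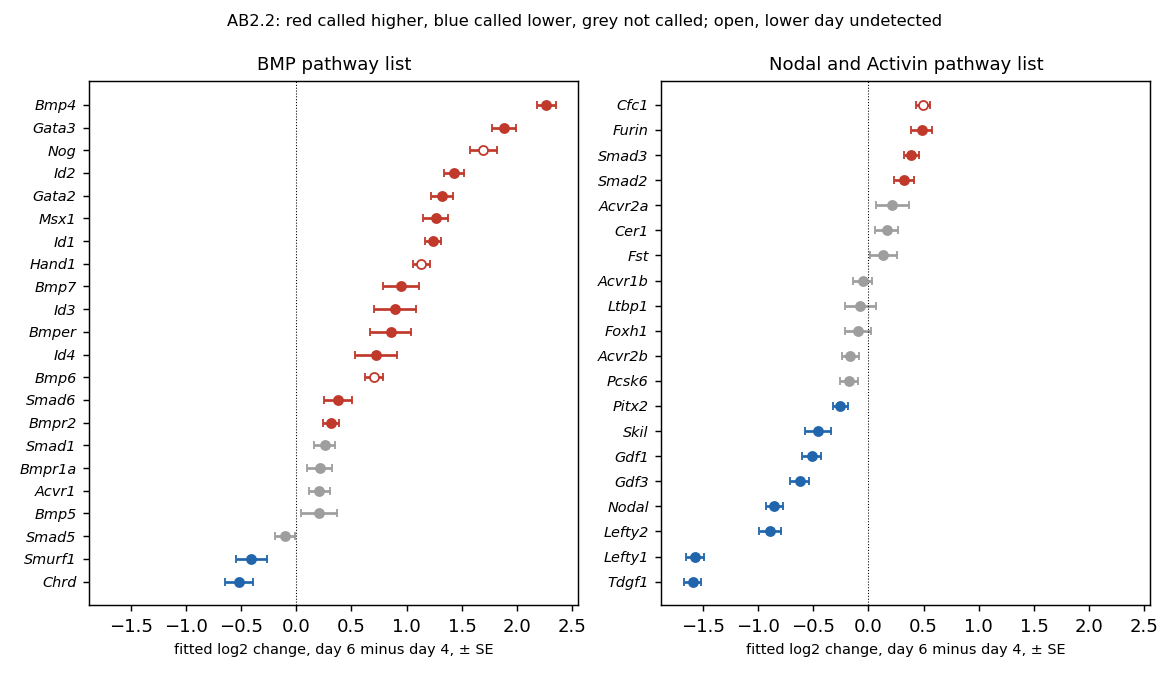
Fitted log2 changes from day 4 to day 6 in AB2.2 with their standard errors (x axis) for the tested genes of the BMP list (left, 22 genes) and the Nodal and Activin list (right, 20 genes), red called higher, blue called lower and grey not called; open points were undetected on the lower day, where the fitted value is no measure of the fold. Bmp4 and the Id genes lie to the right of 0, and Tdgf1, both Lefty genes and Nodal to the left.

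In the Nodal and Activin pathway, which patterns the epiblast and induces endoderm, 8 of 20 genes fell and 4 rose (median -0.13, which turned to 0.06 with 5 lower under median scaling). Tdgf1, the obligate coreceptor Cripto, fell from 9.05 and 9.02 to 7.53 and 7.36 (-1.59 ± 0.08, 3.01-fold lower, adjusted p = 1.21e-07). Nodal itself fell from 10.48 and 10.44 to 9.66 and 9.55 (-0.85 ± 0.08), and the related ligands Gdf3 and Gdf1 fell by 0.62 and 0.51. Both antagonists that Nodal signalling induces fell, Lefty1 from 10.83 and 10.78 to 9.18 and 9.29 (-1.57 ± 0.08) and Lefty2 by 0.89. Lefty1 and Lefty2 had been higher still on day 2 (means 12.33 and 10.46). The ligand, the coreceptor and the induced antagonists were therefore all lower at day 6. The transducers Smad2 and Smad3 rose by 0.32 and 0.39, and the receptor genes Acvr1b (-0.05), Acvr2a (0.22) and Acvr2b (-0.16) were not called. Without the first day 6 array, 2 of the 20 were called higher.

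The Wnt list was mixed, with 8 of 32 higher and 5 lower (median 0.19, with 15 higher and 3 lower under median scaling). Wnt8a, a ligand of the early epiblast and streak, had the largest fall of all genes. It was 7.69 and 7.53 on day 4 and 5.46 and 5.44 on day 6 (-2.16 ± 0.10, 4.47-fold lower, adjusted p = 7.64e-08), which is near its level on day 2. The noncanonical ligand Wnt5a, by contrast, rose from 5.19 and 5.06 to 6.79 and 6.71 (1.63 ± 0.18, another probe 0.52), Wnt6 was undetected on day 4 and at least 1.70-fold higher, and the secreted antagonist Frzb rose by 1.82. Axin2, the feedback gene that reports on beta-catenin signalling, fell by 0.40, and Tcf7 by 0.57. Among genes detected on all 4 arrays, 4 of 26 of the Wnt list were called higher.

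Of 21 FGF and ERK genes 5 rose and 8 fell (median -0.07, 0.09 with median scaling). The ligands Fgf5, Fgf8, Fgf15 and Fgf17 fell by 0.98, 0.76, 0.95 and 0.47, and the ETS factors Etv4 and Etv5, which report on FGF signalling, by 0.65 and 0.54. Fgfr2, the receptor of epithelia, rose from 9.21 and 9.22 to 10.22 and 10.20 (1.00 ± 0.07, other probes 0.84 and 0.30), and Fgfr3, undetected on day 4, was at least 1.78-fold higher. So all 4 called ligands fell, while the called receptors rose by their brightest probes. Of 13 Notch genes 2 rose and 2 fell (15.38% each, near the 15.7% and 16.7% of all genes). Among these, the glycosyltransferase Mfng fell by 0.95 and Notch4 by 0.69, while the target gene Hey1 rose by 0.51.

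Genes of the primed epiblast fell, 12 of 19 called lower and 3 higher (median -0.61). Fgf5 went from 9.93 and 10.08 to 9.05 and 9.01 (-0.98 ± 0.11, 1.97-fold lower, adjusted p = 5.5e-05), and Pou3f1, the POU factor Oct6, from 9.50 and 9.66 to 8.62 and 8.63 (-0.95 ± 0.10). The homeobox factor Otx2 fell by 0.69, Zic2 by 1.15 and Dnmt3b, the de novo DNA methyltransferase, from 13.96 and 13.90 to 13.12 and 13.20 (-0.77 ± 0.08), where a second probe gave -1.39. Fgf5 was nonetheless far above the level of its day 0 arrays (4.40 and 4.38). Pou3f1 and Dnmt3b had already fallen from day 2 (means 10.25 and 14.22) to day 4 (9.58 and 13.93). The forkhead gene Foxd4 rose against the direction of its list, from 6.64 and 6.63 to 7.88 and 8.04 (1.32 ± 0.13), and Cldn6 rose by 0.61.

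Of 15 core pluripotency genes 9 fell and 1 rose (median -0.46). Pou5f1, the POU factor Oct4, fell from 12.06 and 12.15 to 11.09 and 11.03 (-1.05 ± 0.11, 2.07-fold lower, adjusted p = 2.16e-05), with a second probe at -1.06. Utf1, a chromatin factor of ES cells, fell from 10.90 and 11.02 to 10.05 and 10.02 (-0.92 ± 0.08). Sox2 was 8.57 on both day 4 arrays and 8.41 and 8.35 on day 6 and was not called (-0.19 ± 0.10, adjusted p = 0.19), though it passed with the mean of its probes (-0.28, adjusted p = 0.013) and in the authors' values (-0.19, adjusted p = 0.0377). The day 4 and day 6 arrays did not overlap for Pou5f1, Utf1 or Sox2, as for 67.3% of all genes tested. The fitted change of Sox2 was smaller than those of Pou5f1 and Utf1. L1td1, Zscan10, Dppa2 and Dppa4 fell by 0.88, 0.76, 0.46 and 0.30, while Lin28a (-0.04) and Sall4 (0.00) were not called. Fut4, which makes the SSEA1 carbohydrate, rose by 0.74.

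The naive pluripotency genes did not move one way, with 6 of 22 higher and 7 lower (median -0.02, 0.17 with 4 lower under median scaling). Nanog fell from 11.91 and 11.96 to 11.13 and 11.19 (-0.78 ± 0.10). Klf4, a zinc finger factor that LIF sustains, rose from 6.05 and 6.23 to 7.28 and 7.25 (1.12 ± 0.09, 2.18-fold, adjusted p = 4.65e-06), far below its day 0 levels of 10.37 and 10.33. Esrrb (-0.26 ± 0.10, adjusted p = 0.0737) and Zfp42 (-0.01 ± 0.11, adjusted p = 0.978) were not called. So Nanog and Klf4 moved in opposite directions. Esrrb passed the threshold without the second day 6 array (-0.40, adjusted p = 0.0223) and without background correction (-0.25, adjusted p = 0.0173). Tbx3 and Tfcp2l1 rose by 0.68 and 0.60, and the ES cell Ras gene Eras fell by 0.76.

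Of 20 genes that respond to LIF and STAT3, 11 rose and 2 fell (median 0.34), in cells without added LIF. The immediate early factor Fos went from 6.83 and 6.97 to 8.33 and 8.25 (1.40 ± 0.11, 2.63-fold), Ier3 from 10.01 and 9.98 to 11.13 and 11.16 (1.15 ± 0.07), and Junb rose by 0.45. Feedback inhibitors of the pathway were among them, Socs3 at 0.75 and Cish at 0.53, whereas Socs2 fell by 0.49. The receptor subunits Lifr and Il6st rose by 0.44 and 0.31, the kinase gene Jak1 fell by 0.67, and Stat3 (0.26) and Myc (-0.06) were not called. Fos, Ier3, Klf4 and Tfcp2l1 are also counted in other lists here.

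Primitive streak and mesendoderm genes, which mark the cells that leave the epiblast at gastrulation, moved in both directions. Of 19 tested, 5 rose and 7 fell, and the sign of the median (0.07) depended on the arrays used, being -0.11, -0.10 and -0.06 without the first day 4, the first day 6 or the second day 6 array. Mesp1, which marks the earliest cardiac and cranial mesoderm, was undetected at day 4 (4.36 and 4.37) and reached 7.15 and 7.39 on day 6, at least 5.41-fold higher (adjusted p = 3.06e-08), and it was back to 5.22 on the day 8 array. Evx1, a posterior streak factor, went from 6.26 and 6.10 to 7.79 and 7.90 (1.67 ± 0.18), and Mixl1 from 5.78 and 5.23 to 6.16 and 6.33 (0.74 ± 0.14, second probe 0.41). Eomes, the T-box factor that opens the streak, went from 7.44 and 7.83 to 6.66 and 6.88 (-0.87 ± 0.20, adjusted p = 0.00658, second probe -0.34), and it missed the threshold without the second day 4 array (-0.67, adjusted p = 0.0626) or the first day 6 array (-0.76, adjusted p = 0.0516). Thus Mesp1 had its highest level at day 6 and Eomes was lower there than at day 4. Brachyury (T) was 7.94 and 7.93 on day 4 and 7.65 and 7.70 on day 6 (-0.26 ± 0.09), a change at the threshold (adjusted p = 0.0492) that was lost without any 1 of the 4 arrays (adjusted p from 0.11 to 0.17). The organizer genes Gsc and Chrd fell by 0.75 and 0.52.

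**Figure D4:**
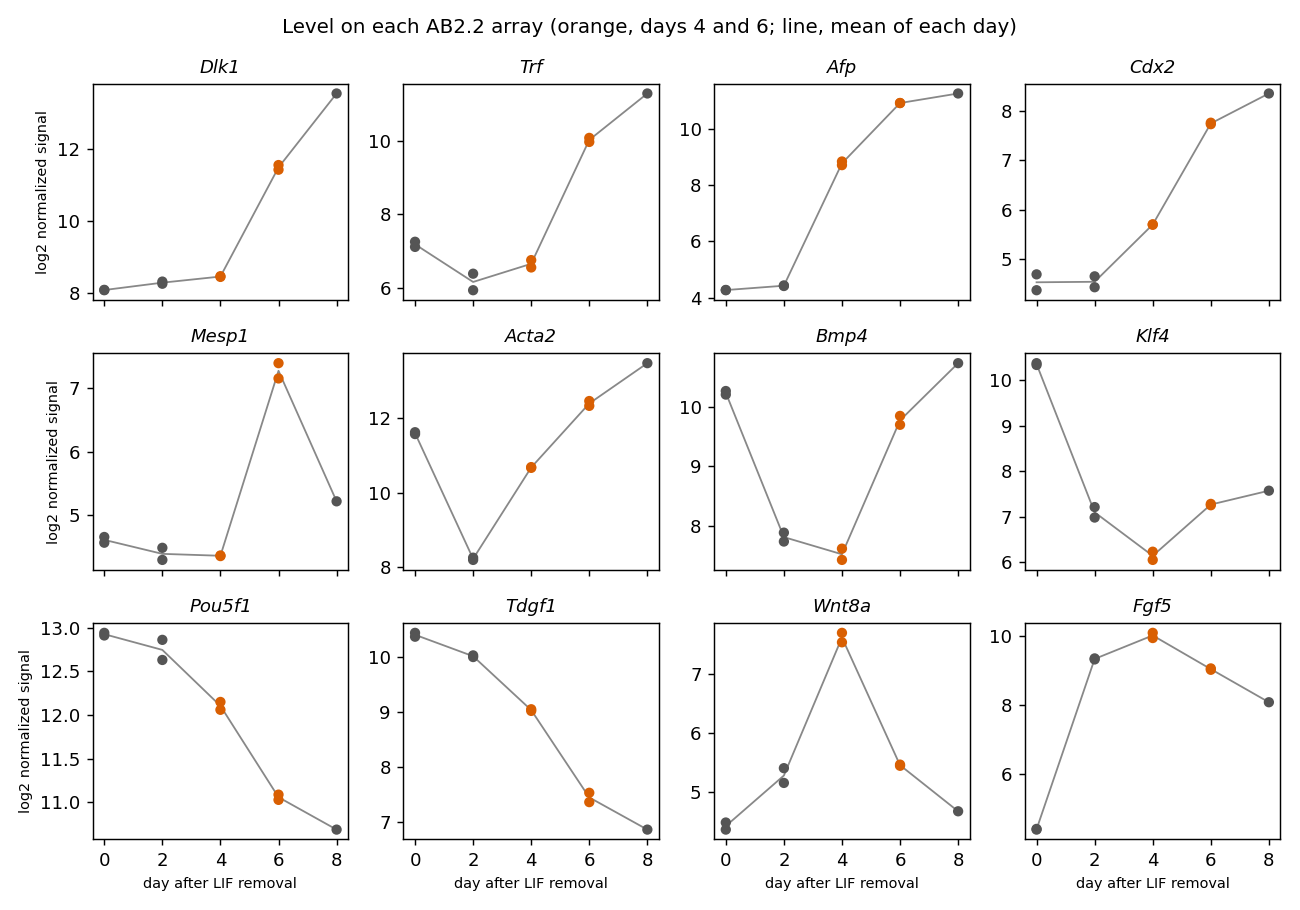
Log2 normalized signal (y axis) of 12 genes on each of the 9 AB2.2 arrays by day after LIF removal (x axis), with days 4 and 6 in orange and a line through the mean of each day. Dlk1, Trf, Afp, Cdx2, Acta2 and Bmp4 rose from day 4 to day 6 and were higher still on the single day 8 array, Mesp1 had its highest level at day 6, and Wnt8a and Fgf5 had theirs at day 4.

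Among 29 genes of cardiac mesoderm 27 had a probe and 14 passed the filter on detection, 8 of them called higher and 1 lower (median 1.13, or 0.89 at bounds). Tnnc1, the troponin C of cardiac and slow muscle, went from 8.72 and 8.62 to 10.75 and 10.68 (2.05 ± 0.09, 4.13-fold), and the atrial light chain Myl4 from 7.53 and 7.42 to 9.20 and 9.33 (1.79 ± 0.09). Isl1, the LIM homeobox factor of the second heart field, was undetected on day 4 and at least 4.31-fold higher on day 6. The myosin light chains Myl3 and Myl7 rose by 1.53 and 1.67, whereas cardiac actin Actc1 (-0.24) and Myl2 (-0.10) were not called and Myh6 fell by 0.37. Contractile genes thus did not move together. Without the first or second day 6 array 5 of 9 and 5 of 10 tested cardiac genes were called higher, as were 3 of the 7 detected on all 4 arrays.

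Smooth muscle and actin cytoskeleton genes, which respond to serum response factor, rose in 17 of 24 cases and fell in 1 (median 0.39, with 11 higher without the second day 6 array). Acta2, smooth muscle actin, went from 10.67 and 10.69 to 12.47 and 12.34 (1.72 ± 0.09, 3.30-fold, adjusted p = 1.22e-07), with its other probes between 1.58 and 1.87. Caldesmon (Cald1) rose from 5.40 and 4.93 to 6.74 and 6.65 (1.53 ± 0.13), where its 3 other probes lay between 0.42 and 0.69, and desmin (Des) from 7.77 and 7.72 to 8.50 and 8.62 (0.81 ± 0.10). Smooth muscle actin therefore led a list most of whose members rose by less than 2-fold. Tagln, transgelin, rose by 0.57 ± 0.10, Srf itself (0.06) and Myl9 (0.11) were not called, and smoothelin (Smtn) fell by 0.40.

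The promoters of Myl7 and Myl3 are shown because they hold a CArG box, the serum response factor motif, and both genes rose, by 1.67 and 1.53. They are RefSeq sequences of mouse build GRCm38.p6, from 250 bases before to 50 after the transcription start, read along the gene's strand, with the CArG box in capitals.
Myl7 (chr11:5898733-5899032, minus strand, match from base -61): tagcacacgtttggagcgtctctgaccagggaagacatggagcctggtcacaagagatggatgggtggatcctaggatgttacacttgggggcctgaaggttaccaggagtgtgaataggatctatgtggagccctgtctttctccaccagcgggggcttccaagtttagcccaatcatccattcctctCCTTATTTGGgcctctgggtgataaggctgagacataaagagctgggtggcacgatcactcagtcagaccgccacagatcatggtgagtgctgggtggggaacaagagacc
Myl3 (chr9:110763428-110763727, plus strand, match from base -85): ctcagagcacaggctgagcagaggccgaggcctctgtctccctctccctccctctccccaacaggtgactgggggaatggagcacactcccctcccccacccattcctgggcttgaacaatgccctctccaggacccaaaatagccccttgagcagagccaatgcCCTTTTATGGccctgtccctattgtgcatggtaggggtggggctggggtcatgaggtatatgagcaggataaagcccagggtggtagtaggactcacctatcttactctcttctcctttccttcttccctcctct
Searched on both strands, the exact CArG box was in 4 of 20 smooth muscle promoters (20.0%) and in 3 of 11 cardiac promoters (27.3%), against 1.57% of 27025 promoters. The smooth muscle list holds genes that respond to serum response factor, so its share describes the list and not the change. The 7 genes with a CArG box were Myl9, Cnn2, Vcl, Srf, Actc1, Myl3 and Myl7, of which Cnn2 (0.49), Myl3 and Myl7 rose and the other 4 were not called. Acta2 was not among the 7. The other motif searched, GTTAAT, was in 4 of 28 visceral endoderm promoters (14.3%) and 0 of 6 endoderm factor promoters, against 7.2% of all. A window without a match says only that these letters are not in it.

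In the remaining mesoderm, Etv2, the ETS factor that starts the blood and endothelial lineages, fell from 9.27 and 9.25 to 7.94 and 7.90 (-1.34 ± 0.09, 2.52-fold lower), and Sox18 fell by 0.56. Flt1, a VEGF receptor, rose by 0.89 from 8.33 and 8.37, and its ligand Vegfa by 0.85 from 9.81 and 9.85. Nrp1, a coreceptor for VEGF and semaphorins, rose from 4.98 and 5.09 to 7.31 and 7.52 (2.37 ± 0.12, 5.18-fold). The main VEGF receptor gene Kdr was undetected on all 4 arrays, Tek (0.20) was not called, and the vascular and blood list as a whole had 3 of 11 higher and 3 lower. Of 15 lateral and paraxial mesoderm genes 8 rose and 3 fell, and 5 of 12 tested were called higher without either day 6 array. Detection on all 4 arrays held for 10 of the 15 lateral and paraxial mesoderm genes. Pdgfra, the PDGF receptor of mesoderm and primitive endoderm, rose by 1.14, Zeb2, a repressor of E-cadherin, by 1.28 (another probe 0.28, and 0.15 with an adjusted p of 0.114 in the authors' values), and Snai2 was at least 1.68-fold higher from an undetected level, while Tcf15 fell by 1.23. E-cadherin (Cdh1) fell by 0.43.

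Extracellular matrix genes rose in 22 of 33 cases and fell in 2 (median 0.62, or 0.50 at bounds). Detection on all 4 arrays held for 28 of the 33. Col1a1, the fibrillar collagen chain of connective tissue, was undetected on day 4 (4.60 and 4.57) and at least 4.03-fold higher on day 6 (6.87 and 6.82). The cartilage and notochord collagen Col2a1 went from 6.91 on both arrays to 8.70 and 8.71 (1.80 ± 0.08), Col5a1 from 7.65 and 7.70 to 9.06 and 9.05 (1.38 ± 0.08), and Col6a1 rose by 1.51 ± 0.13. Fibronectin (Fn1) and biglycan (Bgn) rose by 0.62 and 1.66, and decorin (Dcn) and Col9a3 fell by 1.06 and 1.23. Col1a1 is also in the fibroblast list, in which 5 of 11 rose and 2 fell. In that list Vim, the mesenchymal intermediate filament vimentin, rose by 1.11 and Thy1, a surface glycoprotein, fell from 8.69 and 8.75 to 7.30 and 7.04 (-1.55 ± 0.11), and the part of fibroblasts in the change of the matrix genes was not tested.

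Imprinted genes, expressed from 1 parental allele, rose in 13 of 24 cases and fell in 3 (median 0.29). Dlk1, a Notch-related transmembrane protein of fetal tissues, went from 8.46 and 8.44 to 11.42 and 11.55 (3.03 ± 0.07, 8.19-fold, adjusted p = 1.11e-09), with a second probe at 2.77, and it reached 13.54 on the day 8 array. Meg3, the noncoding RNA of the same imprinted domain, which is expressed from the other parental allele, was 9.50 and 9.56 on day 4 and 9.75 and 9.87 on day 6 (0.28 ± 0.08, adjusted p = 0.0224). Its call was lost without the first day 4, the second day 4 or the second day 6 array (adjusted p = 0.104, 0.0561 and 0.145) and its other probe gave -0.03. The 2 genes of the domain thus had changes of very different size. In the other well known domain, Igf2, a fetal growth factor, went from 12.03 and 12.01 to 14.03 on both arrays (2.01 ± 0.08, 4.03-fold) and the noncoding RNA H19 from 12.56 and 12.49 to 13.90 and 13.99 (1.42 ± 0.08, second probe 1.84). Cdkn1c, a cyclin-dependent kinase inhibitor, rose from 9.90 and 9.83 to 11.86 and 11.84 (1.98 ± 0.08), Peg3 by 1.60, Phlda2 by 1.04, Mest by 0.94 and Peg10 by 0.86. Growth promoters (Igf2, Peg3, Mest) and growth inhibitors (Cdkn1c, H19, Phlda2) were both among those that rose. Of the genes of insulin-like growth factor signalling, 9 of 16 rose and none fell, including the binding proteins Igfbp5 (1.29 ± 0.07) and Igfbp4 (1.20 ± 0.10), while the receptors Igf1r (0.12) and Insr (0.14) were not called.

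Neural genes had no common direction, with 4 of 15 higher and 6 lower (median -0.09, 0.09 with median scaling). Microtubule protein Mapt rose by 1.16 ± 0.12 from 4.99 and 4.74, with a second probe at 0.46, and was not called in the authors' values (0.14, adjusted p = 0.0956). Sox21 rose by 1.02 and Ncam1 by 0.99, and Elavl3 fell from 7.08 and 7.04 to 6.15 and 6.35 (-0.82 ± 0.09). Fezf2, a forebrain zinc finger factor that belongs to no list, rose from 5.41 and 5.06 to 7.73 and 7.80 (2.53 ± 0.12, 5.78-fold, another probe 1.31). Of 34 Hox genes 10 passed the filter and 3 (Hoxb4, Hoxc4 and Hoxc9) were called higher from undetected levels, with bounds of 1.70-fold, 1.27-fold and 1.07-fold. Without the first or second day 6 array 5 and 6 Hox genes passed the filter and none was called, and the Hoxc4 call was lost under 11 of the alternatives, among them the omission of either day 4 array (adjusted p = 0.109 and 0.108). The TALE cofactors of the Hox proteins rose by more, Meis1 from 5.53 and 5.58 to 6.96 and 6.93 (1.39 ± 0.11) and Meis2 from 6.93 and 6.99 to 8.64 and 8.50 (1.61 ± 0.10). Retinoic acid genes, in which both Meis genes and Rbp4 are counted, rose in 7 of 15 cases and fell in 1. Detection on all 4 arrays held for 11 of the 15.

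Germ cell genes were mixed, with 5 of 15 higher and 3 lower, among them Dazl (0.86 ± 0.10), Taf7l (0.88 ± 0.09) and Dppa3 (0.59 ± 0.12), which rose, and Ddx4, which fell by 0.52. In the small set of genes of the 2-cell-like state, 5 of 7 rose and none fell, or 3 without the second day 4 or the first day 6 array. Khdc3, a maternal factor, went from 5.63 and 5.66 to 6.48 and 6.75 (0.97 ± 0.09), and Tcstv3 and Zscan4c, members of multicopy families whose probes may share signal, rose by 0.55 and 0.29, the latter not called in a fit of the 4 arrays alone (adjusted p = 0.0743) or without the second day 4 or the first day 6 array (adjusted p = 0.154 and 0.149). These 3 genes were far below their day 0 levels.

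Cholesterol and fatty acid synthesis was the metabolic list with most falls, 17 of 29 called lower and 1 higher (median -0.41, with 11 lower under median scaling). The mevalonate pathway enzyme Fdps fell from 11.53 and 11.48 to 10.58 and 10.51 (-0.96 ± 0.08, 1.95-fold lower, second probe -0.47), Sqle by 0.73 (second probe -0.46) and Idi1 by 0.85, and the desaturase Scd1 by 0.85 ± 0.10. Most genes of the list were thus lower, while the regulators Srebf2 (-0.15) and Insig1 (-0.05) were not called. Of 33 genes of glycolysis and the hypoxia response 8 rose and 2 fell, led by Vegfa and the collagen prolyl hydroxylase P4ha1 (0.67 ± 0.08), and the glycolytic enzymes themselves, such as Pkm (0.03), Eno1 (0.06) and Ldha (-0.02), were not called. Of 29 genes of oxidative phosphorylation none rose and 4 fell (13.8%, against 16.7% of all genes), and none fell under median scaling.

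DNA replication genes were lower in 14 of 32 cases and higher in none (median -0.21). Pcna, the polymerase clamp, fell from 8.03 and 8.14 to 7.38 and 7.44 (-0.68 ± 0.10), and the cyclin Ccne1 by 0.61. With median scaling 2 were called lower, and without the second day 4, the first day 6 or the second day 6 array there were 9, 9 and 7. Of 21 mitosis genes 2 rose and 4 fell (9.52% and 19.05%, against 15.7% and 16.7% of all genes), and none fell with median scaling. Of 17 cell cycle inhibitors and G1 cyclins 7 rose and 3 fell (median 0.14, with none lower under median scaling). Among the inhibitors, Cdkn1c, the p53 target Cdkn1a (9.95 and 9.82 to 11.04 and 10.84, 1.06 ± 0.09) and Cdkn2a (0.69) rose, Cdkn2c fell by 0.45, and Cdkn1b (0.07) and Cdkn2d (0.14) were not called. The D cyclins were split, Ccnd2 rising from 8.27 and 8.18 to 9.70 and 9.97 (1.62 ± 0.10, other probes 1.72 and 1.01), Ccnd3 by 0.63 (other probes between 0.36 and 0.75), and Ccnd1 falling by 0.50. MYC and ribosome biogenesis genes were lower in 9 of 24 cases and higher in none (median -0.19, with 4 lower under median scaling), with the rRNA processing factors Pes1 and Bop1 at -0.80 ± 0.09 and -0.76 ± 0.10. Of 22 p53 target genes 5 rose and 2 fell (22.7% and 9.09%, against 15.7% and 16.7% of all genes). Fewer of them rose without the first day 4 or the second day 6 array.

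Genes of the interferon response and antigen presentation fell in 9 of 23 cases and rose in 1 (median -0.22). The GTPase Irgm2 fell from 8.73 and 8.72 to 7.71 and 7.69 (-1.02 ± 0.10), the immunoproteasome subunits Psmb10 and Psmb9 by 0.91 and 0.69, and their activator Irf1 from 11.83 and 11.73 to 11.08 and 11.13 (-0.67 ± 0.08). B2m, the light chain of MHC class I, was the exception, rising from 11.26 and 11.35 to 12.22 and 12.24 (0.93 ± 0.09, second probe 0.88). Polycomb and DNA methylation genes had 5 of 27 higher and 11 lower. Among them the PRC1 subunits Phc1 and Cbx7, which ES cells express, fell by 0.79 (other probes -0.98 and -0.40) and 0.65, and Pcgf5 rose by 0.82 (second probe 0.35). Falls in this list numbered 7 without the second day 4 or the first day 6 array and 5 with median scaling.

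Among stress genes, Gadd45b, a growth arrest and DNA damage gene that NF-kappaB and TGF-beta induce, went from 8.34 and 8.37 to 10.61 and 10.68 (2.29 ± 0.10, 4.89-fold, second probe 1.45), and Gadd45g rose by 1.06. Gadd45a (-0.05) and the stress factor Ddit3 (-0.08) were not called. The ATF4 list as a whole had 8 of 27 higher and 5 lower (3 lower with median scaling and without the second day 4 or the second day 6 array), with the cationic amino acid transporter Slc7a3 falling from 11.59 and 11.67 to 10.38 on both arrays (-1.24 ± 0.08). The inducible chaperone Hspa1a was undetected on day 4 and at least 2.65-fold higher on day 6, while Hspa5 (0.08) and Hspa8 (-0.08) were not called. The small heat shock protein Cryab rose from 6.87 on both arrays to 9.17 and 9.21 (2.32 ± 0.23). Of 23 genes of lysosomes and endocytosis 10 rose and none fell, led by the proteases Ctsh (0.88 ± 0.09) and Lgmn (0.77 ± 0.11).

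The remaining genes among the 15 highest changes, ranked with undetected genes at their bounds, belonged to no list. Capn6, a calpain-like protein without protease activity, rose from 5.76 and 5.61 to 8.49 and 8.60 (2.86 ± 0.17, 7.26-fold), the myelin protein Pmp22 from 6.24 and 6.23 to 8.81 and 8.84 (2.59 ± 0.13, 6.01-fold, second probe 1.90) and its relative Emp1 from 6.81 and 6.52 to 9.03 and 9.10 (2.40 ± 0.09, 5.29-fold). Pisd-ps2 rose by 2.89 ± 0.10, but it is a pseudogene whose probe may share signal with its parent and other copies. Pmp22 and Emp1 belong to the same family of tetraspan proteins. Among the 15 lowest changes, Enpp2, which encodes autotaxin, the enzyme that makes lysophosphatidic acid, fell from 10.20 and 10.05 to 8.25 and 8.21 (-1.89 ± 0.15, 3.71-fold lower). The secreted phospholipase Pla2g1b fell from 9.98 and 9.90 to 8.18 and 8.13 (-1.78 ± 0.07), and the ectonucleotidase Nt5e, CD73, from 7.57 and 7.66 to 5.95 and 6.07 (-1.61 ± 0.10). Trh, the thyrotropin-releasing hormone precursor, fell from 13.37 and 13.15 to 11.78 and 11.73 (-1.51 ± 0.09). These genes for secreted and surface enzymes and a hormone precursor were 2.85-fold to 3.71-fold lower. Bcl11b, a zinc finger factor, the cyclin Ccno, Exoc3l, Ppp4r4, Psors1c2 and the metalloprotease Mmp25 had changes of -1.68, -1.60, -1.57, -1.56, -1.51 and -1.43, where the other Bcl11b probes gave -0.57 and -0.93, and the glutamate receptor gene Grm6 was at least 2.90-fold lower, being undetected on day 6. The reference genes Gapdh (0.08 ± 0.07, adjusted p = 0.384) and Actb (0.16 ± 0.09, adjusted p = 0.179) were not called, although the mean of the Actb probes was lower on day 6 (-0.26, adjusted p = 0.0374).

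The same interval in PL2F8 rests on day 6 arrays that were dim, with mean signals of 137.4 and 134.8 against 283.6 and 286.0 on day 4, so the difference between lines is given with that limit. In a fit of all 18 arrays the change in PL2F8 was higher than in AB2.2 for 2977 of 14753 genes (20.2%) and lower for 3669 (24.9%), and with median scaling these counts became 295 and 10930. Of 34 visceral endoderm genes, 21 had a lower change in PL2F8 and 4 a higher one, and the list medians were 1.17 in AB2.2 and 0.32 in PL2F8. For gut genes 9 of 14 were lower and 2 higher (medians 1.22 and 0.15), and for BMP genes 12 of 22 lower and 1 higher (0.70 and -0.03). For trophoblast genes, 5 of 21 had a lower and 6 a higher change in PL2F8, with medians of 0.97 and 1.02. Primed epiblast genes had medians of -0.55 and -0.69 in AB2.2 and PL2F8. On all 4 PL2F8 arrays of these days 6 of the 34 visceral endoderm genes (among them Fga and Slc2a2), 4 of the 14 gut genes (among them Cdx2, Cldn2 and Tff3) and 3 of the 22 BMP genes were undetected, so for these genes the PL2F8 change rests on signal not above background. The dimness of the PL2F8 arrays moves with these differences, and its part in them was not tested.

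Bmp4 was the gene of the BMP list with the largest difference between lines. In that fit it was 7.23 and 7.06 on day 4 and 9.37 and 9.22 on day 6 in AB2.2, and 7.69 and 7.67 on day 4 and 7.36 and 7.24 on day 6 in PL2F8. It thus rose in AB2.2 and was lower on both day 6 arrays in PL2F8, a difference of -2.53 ± 0.12 (adjusted p = 1.34e-07) in a fit of 2 arrays a group. Acta1, the actin of skeletal muscle, went the other way, rising by 0.94 in AB2.2 and by 3.79 in PL2F8 (difference 2.85 ± 0.19). Emp1 rose by 2.23 in AB2.2 and fell by 0.41 in PL2F8. Tff3 rose in AB2.2 and was undetected in PL2F8 on all 4 arrays of these days (difference -2.51 ± 0.12, resting on signal not above background). Afp (2.10 and 1.24, adjusted p = 0.0711), Igf2 (2.18 and 2.35, adjusted p = 0.271) and Gadd45b (2.22 and 2.19, adjusted p = 0.843) had differences between lines that were not called. In PL2F8, Afp was undetected on both day 4 arrays (4.40 and 4.58) and stood at 5.14 and 6.33 on day 6. Its change in PL2F8 therefore starts from signal not above background.

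**Figure D5:**
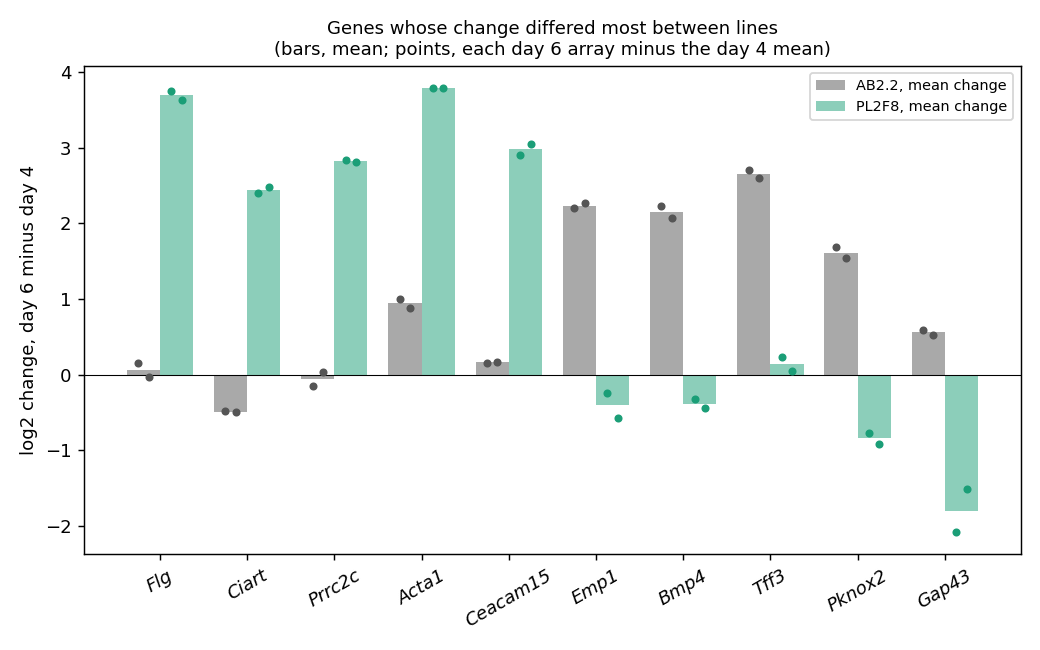
Log2 change from day 4 to day 6 (y axis) in AB2.2 (grey) and PL2F8 (green) for the 5 genes with the highest and the 5 with the lowest difference between lines, bars for the mean of 2 arrays against 2 and points for each day 6 array minus the day 4 mean. Acta1 rose by 0.94 in AB2.2 and 3.79 in PL2F8, and Bmp4 rose in AB2.2 and fell by 0.38 in PL2F8.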

How the data were processed

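Per the file headers, the deposited values were non-normalized mean probe signals (intensity) with a detection p-value each, for 45281 probes on 18 arrays; 445 shifted lines were left out. The authors' deposited matrix was found by recomputation to hold linear-scale signal without background correction, with the quantile normalization done on the log2 scale. It named 44581 probes through matching values (30439 of 30848 lines matched, 409 not matched, 58 ambiguous). Of the matched lines, 8809 held the mean of several probes. Symbols were updated through the platform annotation and RefSeq (GRCm38.p6). The software behind the authors' matrix is not given in the sources used here. Signal was background-corrected with limma 3.58.1 in R 4.3.3 (normal-exponential model, negative controls inferred from the detection values, offset 16) and quantile normalized over 15 arrays, without the 3 dim PL2F8 arrays of days 6 and 8. Probes detected (below 0.05) on at least 2 of the 4 arrays were kept, the brightest for each gene. The limma model fitted each combination of line and day, with 7 residual and 4.36 prior degrees of freedom; p-values were two-sided moderated tests with Benjamini-Hochberg adjustment. The difference between lines used all 18 arrays and probes detected on at least 2 of 8. Where both arrays of the lower day were undetected, the fold is a bound from the lowest detected signal (4.75 to 4.85, log2) or the gene's own, if higher.

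The 43 gene lists and the genes named were chosen with earlier results of these data known. Named were the 15 highest and 15 lowest changes, each list's 4 called genes of smallest p, a set of fixed genes and, for the lines, the 5 highest and 5 lowest differences; other list members were picked after their values were seen, and some members are not reported here. Alternatives changed the arrays fitted, scaling, background, offset, filter, probe choice, variance model, replicate block and single arrays, and the code was tested on simulated data. The number of arrays limits the precision.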

Additional observations from a re-analysis of the deposited data

Results flagged for a closer look

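A set of 10 genes had the highest and lowest differences between lines in the change from day 4 to day 6 (PL2F8 minus AB2.2, log2, limma interaction on 18 arrays, adjusted p below 0.05 for each). They were marked because the change itself differed between the lines, and all rest on the dim PL2F8 day 6 arrays. The change was higher in PL2F8 for Flg, filaggrin of the epidermis (3.62), which was detected on both PL2F8 arrays of day 6 and on none of the other 6 arrays of these days, for Ciart, a repressor of the circadian clock (2.93), for Prrc2c (2.88), for Acta1 (2.85) and for Ceacam15 (2.81), which was undetected in AB2.2 on both days. The change was lower in PL2F8 for Emp1 (-2.64), Bmp4 (-2.53), Tff3 (-2.51), the homeobox gene Pknox2 (-2.45), whose other probe had a change of 0.17 in AB2.2, and the growth cone protein Gap43 (-2.36). With median scaling the 5 higher differences became smaller, from 1.20 for Acta1 to 2.25 for Flg, and the 5 lower ones larger, from -2.94 for Pknox2 to -4.10 for Bmp4. The part of array brightness in these differences was not tested.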

How the results depend on the processing

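Of 190 named genes 182 were called. These 182 kept their sign under the alternatives run, 159 kept their call in every one, and 23 lost it in some. Of the uncalled, Esrrb, Gata4 and Sox2 passed in some, and Actb reversed with the mean of its probes (-0.26, adjusted p = 0.0374). With median scaling 3245 genes were higher and 791 lower, 476 and 58 by at least 2-fold, and the line difference had 295 higher and 10930 lower in PL2F8. Median scaling over the genes tested, chosen after seeing the data, put 44.6% of calls higher, with a median of all genes of -0.07. Genes higher and lower by at least 2-fold numbered 127 and 30 without background correction, 166 and 37 with an offset of 50, and 107 and 21 in the authors' matrix, settings that by construction compress the changes of dim probes. Leaving out 1 array gave 1383 to 1675 higher (1415 and 1383 without the first or second day 6 array) and 1443 to 1498 lower (1498 and 1443 without the first or second day 4 array, 1471 and 1467 without the first or second day 6 array). Replicate numbers of days 4 and 6 did not deviate together (r = -0.019 across genes). That value cannot tell whether arrays of the same number share a culture or a processing step. With the replicate as a block 2059 genes were higher and 2117 lower. Signal near background limits genes given as bounds, 209 of the higher and 90 of the lower calls.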
